A study of Mus musculus with 24 samples.

Results

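ADAMTS proteins are secreted zinc metalloproteases of the extracellular matrix, and they take their name from the thrombospondin repeats that follow the protease domain. ADAMTS-like proteins carry such repeats without a protease domain and bind to matrix proteins, among them the fibrillins. Members of the family remove the N-terminal propeptide of fibrillar procollagens, cut large proteoglycans such as versican and aggrecan, or act on fibrillin microfibrils, where latent TGF-β is held. The 10 genes described here are Adamts1, Adamts2, Adamts4, Adamts5, Adamts8, Adamts9, Adamts10, Adamts15, Adamtsl2 and Adamtsl4. They were chosen with earlier results of these data known and taken by gene symbol, and all 10 were found among the 14912 genes of the deposited table.

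The hypertensive-LVH group (LVH, left ventricular hypertrophy) held 12 left ventricle samples of mice that received angiotensin II (ANG II) for 7 days at a rate of 1500 ng/kg/min. The control group held 12 samples of mice that received saline over the same 7 days, in both groups from a pump placed under the skin. All mice were wild type and, by the methods of the study, male C57BL/6J, their hearts were flushed with saline, and their age is not given in the sources used here. The study calls its samples biological replicates, the labels do not say which animal each came from, and further samples of the study were not analysed here. The comparison asks which of these genes differed in level between hypertensive and control left ventricles. All 7 markers of ventricular cardiomyocytes were abundant in both groups, with means from 180 FPKM (Ryr2) to 13200 FPKM (Myl2, control group), while the extraction text of the labels speaks of CRC cells.

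Expression was given as FPKM, the fragments of a gene divided by transcript length and by the mapped fragments of the sample, and the values had been adjusted further, gene by gene. Negative values, which FPKM cannot have, made up 0.766% of the table. Ties split the samples into 4 sets, each with 3 samples of either group (samples 1 to 3, 4 to 6, 7 to 9 and 10 to 12), and within a set the values of both groups shared 1 spacing in at least 99.8% of 401 genes, against at most 1.2% of the genes across sets. What the sets stand for is not stated. From the spacing, the FPKM differences inside each set before the adjustment were worked back for all 10 genes and for 92.8% of the table, but the level of a set as a whole was not. The model for this holds, for each gene, a group difference that the adjustment kept outside its scaling. In that model the groups were known to the adjustment, and tests on the deposited values, limma among them, carry this limit. Samples 4 to 6 stood apart: there the 3 ANG II samples lay above the 3 control samples for 40.9% of 13452 genes, against 4.52%, 18.9% and 12.8% in samples 1 to 3, 7 to 9 and 10 to 12. Results for the 10 genes are therefore given with and without samples 4 to 6. In the model the group difference of a gene is shared by the 4 sets. Deposited values of the other sets can therefore still carry the effect of samples 4 to 6 when these are left out. In samples 1 to 3, Adamts2 differed by 3.87 FPKM as deposited and by 0.847 FPKM before the adjustment, and Adamts10 by 0.321 and -1.40 FPKM. The number of sequenced fragments is not stated, and sums of FPKM lay between 460715 and 515185 in ANG II samples and between 482319 and 567727 in control samples.

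All 10 genes are protein-coding in GENCODE vM21 (GRCm38), and 4 of them form neighbouring pairs. Adamts1 (chr16:85793827-85803113) and Adamts5 (chr16:85856173-85901828) lie on the minus strand with 53059 bases between them. Adamts15 (chr9:30899155-30922452, minus strand) and Adamts8 (chr9:30942562-30963838, plus strand) are transcribed away from each other from either side of a gap of 20109 bases. The remaining 6 genes lie alone on other chromosomes. Promoter windows of RefSeq (GRCm38.p6), 250 bases before to 50 bases after the start of a gene, were held for 5 of the 10 genes. The GC box GGGCGG, searched on both strands, occurred in all 5 of them and in 35.7% of 32851 windows of the same length. The letters TATAAA, on either strand, occurred in those of Adamts1 and Adamtsl2 and in 13.6% of all windows. The AP-1 letters TGACTCA, the E box CACGTG and the Smad box GTCTAGAC, each on both strands, had no match in the 5 windows and occurred in 5.2%, 7.15% and 0.213% of all windows. The 5 windows held from 62.3% (Adamtsl2) to 77.3% (Adamts2) G and C, against a median of 52.7% over all windows. The 250 bases before the start are shown for Adamts2 and Adamtsl2, which had the largest FPKM differences, and for Adamts1, the most abundant protease of the 10 in the control group. GC boxes and TATAAA, on the strand printed or its complement, are in capitals.
Adamts2 (chr11:50601835-50602084, plus strand): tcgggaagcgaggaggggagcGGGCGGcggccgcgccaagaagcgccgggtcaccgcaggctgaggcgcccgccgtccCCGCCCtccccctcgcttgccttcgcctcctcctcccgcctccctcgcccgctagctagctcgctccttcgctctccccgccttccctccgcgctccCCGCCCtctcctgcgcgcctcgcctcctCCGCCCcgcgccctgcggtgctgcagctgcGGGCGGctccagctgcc
Adamtsl2 (chr2:27079129-27079378, plus strand): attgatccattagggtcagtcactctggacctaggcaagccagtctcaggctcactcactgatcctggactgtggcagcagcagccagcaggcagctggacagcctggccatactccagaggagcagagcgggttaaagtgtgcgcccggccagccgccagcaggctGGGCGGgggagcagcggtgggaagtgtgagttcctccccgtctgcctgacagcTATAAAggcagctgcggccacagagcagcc
Adamts1 (chr16:85803114-85803363, minus strand): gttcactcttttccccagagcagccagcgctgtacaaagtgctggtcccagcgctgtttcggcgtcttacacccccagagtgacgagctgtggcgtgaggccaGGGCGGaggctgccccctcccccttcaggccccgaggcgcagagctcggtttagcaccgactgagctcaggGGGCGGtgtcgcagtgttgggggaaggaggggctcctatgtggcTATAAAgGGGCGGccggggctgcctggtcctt
The stretch of Adamts2 held 5 GC boxes and that of Adamts1 held 3, the last of them right behind TATAAA, while that of Adamtsl2 held 1. Letters alone do not show that a factor was bound.

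In the hypertensive-LVH group, 8 of the 10 genes were higher than in the control group and 0 were lower. Among all 14026 genes tested, 20.9% were higher and 12.6% were lower by the same rule, an adjusted p-value under 0.05 from limma with Benjamini-Hochberg adjustment. The criteria for DEGs, which add an absolute log2 fold change above 0.5, were met by 6 of them (Adamts2, Adamts4, Adamts8, Adamts10, Adamts15 and Adamtsl2), against 4.52% of all genes higher and 1.4% lower. Fold changes here are on the scale of log2(FPKM + 1), which can understate the change of genes of low level. With 0.1 added in place of 1, that of Adamts4 was 1.02 and that of Adamts8 1.99, both still past the threshold. Adamts8 had 3 negative control values that were set to 0, so the size of its change depends on the amount added. The median log2 fold change was 0.55 over the 10 genes and 0.05 over all genes. When samples 4 to 6 were left out, 6 of the 10 genes were called, all higher, 2 of them DEGs (Adamts4 and Adamtsl2), and the medians were 0.36 and 0.01. Over all genes, that fit called 1177 higher and 1633 lower, of which 323 and 230 were DEGs. Adamts5, Adamts8 and Adamts10 lost their calls in it, and Adamts9 gained one. Quantile normalization called 7 of the 10 genes, all higher, 3 of them DEGs, and it turned the split over all genes from 2928 higher and 1769 lower into 1922 higher and 2930 lower.

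**Figure D1:**
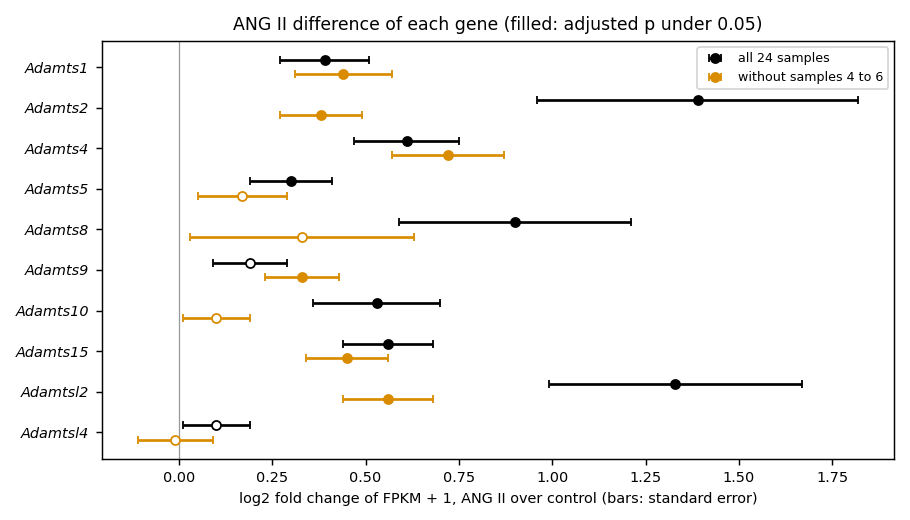
Log2 fold change of each gene, ANG II over control, on the log2(FPKM + 1) scale with its standard error (x axis), for all 24 samples (black) and without samples 4 to 6 of each group (orange). Filled points had an adjusted p under 0.05: 8 genes with all samples and 6 without samples 4 to 6, where Adamts2 dropped from 1.39 to 0.38 and Adamtsl2 from 1.33 to 0.56.

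Differences were also tested by exchanging labels only inside the sets, in all 160000 ways (exact permutation test, two-sided). On the deposited log2 values this called 5 of the 10 genes, all higher, against 16.4% of all genes. On FPKM differences before the adjustment it called Adamts2, Adamts4, Adamts15 and Adamtsl2, against 18.1% of 13452 genes. Before the adjustment, Adamts1, Adamts2, Adamts4, Adamts15 and Adamtsl2 were higher in the hypertensive-LVH group in each of the 4 sets, as were 21.8% of all genes with a recovered value.

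**Figure D2:**
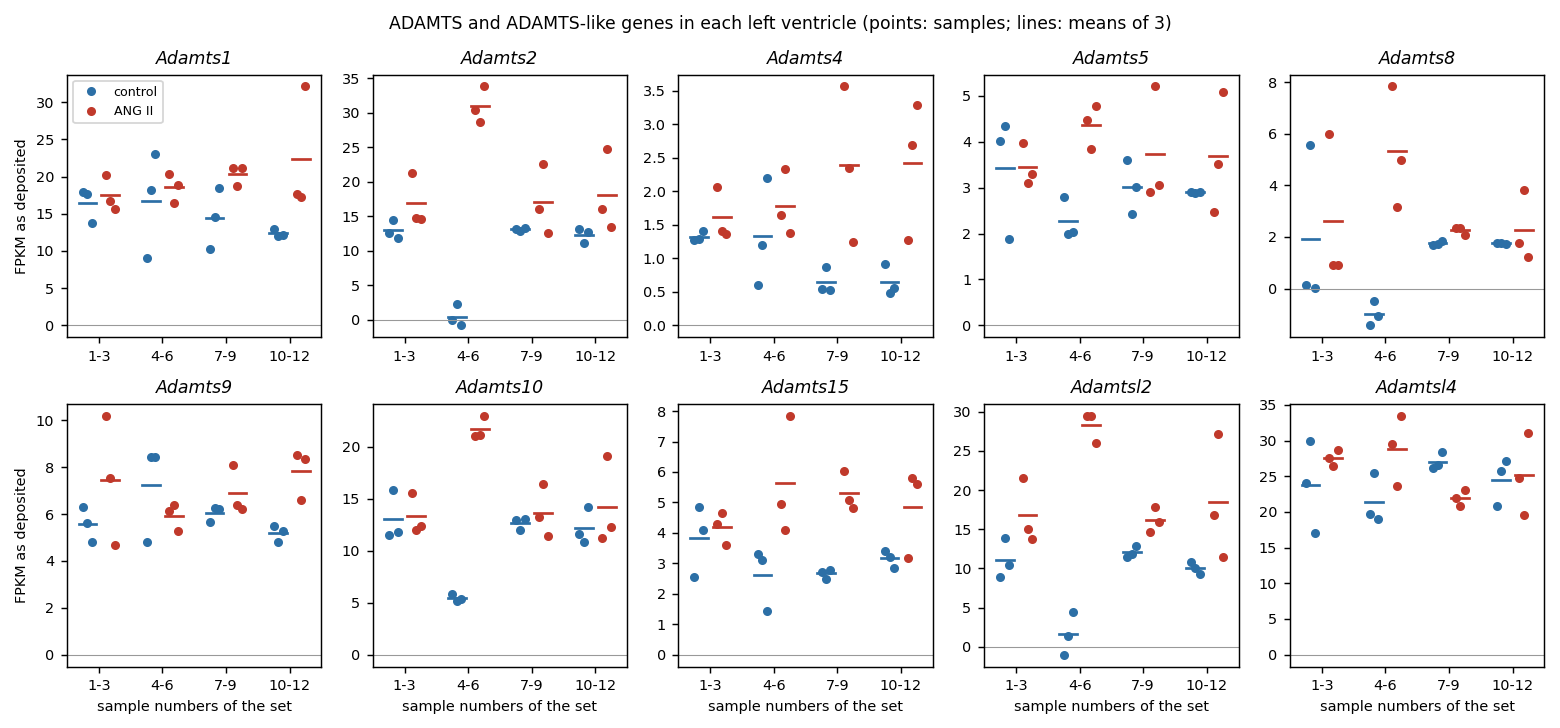
FPKM as deposited (y axis, a separate scale for each gene) in each of the 24 samples, by set (x axis), with control samples in blue, ANG II samples in red and lines at the means of 3 samples. For Adamts2, Adamts5, Adamts8, Adamts10, Adamts15, Adamtsl2 and Adamtsl4, the control mean of samples 4 to 6 was the lowest of the 4 sets. Their ANG II mean of samples 4 to 6 was the highest. Neither held for Adamts1, Adamts4 and Adamts9.

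Adamts2 encodes the main procollagen N-proteinase, which trims procollagens I, II and III so that they can form fibrils. It lies on the plus strand (chr11:50602084-50807573), and its longest coding transcript has 22 exons. In the control group its FPKM had a lowest value of -0.846, a median of 12.7 and a highest value of 14.4. In the hypertensive-LVH group the lowest value was 12.6, the median 18.7 and the highest 33.8. Of the 12 ANG II samples, 10 lay above the highest control sample. The means were 20.7 ± 7.30 and 9.71 ± 5.68 (SD, n = 12), and the log2 fold change was 1.39 ± 0.43 (standard error, limma, adjusted p = 0.015). Since 2 control values were negative and were set to 0 before the logarithm, its size depends on the adjustment. The exact test within the sets gave an adjusted p of 0.00478 on FPKM before the adjustment, with a mean difference of 11.3 FPKM.

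The size of the Adamts2 difference varied between the sets (limma, test of the group by set interaction, adjusted p = 5e-06), a test that 7.49% of all genes passed. In samples 4 to 6 the deposited FPKM were 30.4, 28.7 and 33.8 in the ANG II samples and -0.0557, 2.23 and -0.846 in the control samples. Before the adjustment the 3 ANG II samples lay 31.1, 29.4 and 34.4 FPKM above the lowest control sample, and the other 2 control samples 0.78 and 3.04 above it. The groups thus did not overlap before the adjustment in that set, nor in samples 7 to 9 and 10 to 12, where the mean differences were 7.13 and 6.89 FPKM. In samples 1 to 3 the difference was 0.847 FPKM and the groups overlapped. As deposited, ANG II sample 9 (12.6 FPKM) lay below control samples 7, 8 and 9 (13.2, 12.8 and 13.3 FPKM). The log2 fold change without samples 4 to 6 was 0.38 (limma, adjusted p = 0.0179).

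Of 11 genes of fibrillar procollagens and of C-propeptide removal, 8 were higher and 1 was lower, where 20.9% and 12.6% of all genes were, with a median log2 fold change of 0.71, beside 0.05 over all genes. Col1a1, Col3a1 and Col1a2, the chains of collagens I and III, had the largest values, with log2 fold changes of 2.77 ± 0.88 (adjusted p = 0.018), 2.63 ± 0.98 (adjusted p = 0.0418) and 2.48 ± 0.87 (adjusted p = 0.0296), each with 3 negative values. Bmp1, the main C-proteinase, rose by 0.71 ± 0.18 (adjusted p = 0.00344), and Tll2, a related protease of very low level, fell by 0.12 on the log2 scale (adjusted p = 0.0286). Adamts3 and Adamts14, which also cut procollagens, were not past the threshold, with log2 fold changes of 0.13 (adjusted p = 0.314) and 0.14 (adjusted p = 0.0508). The median of the 11 genes was 0.28 without samples 4 to 6, and 2 of them were called higher, Col1a1 at 0.77 (adjusted p = 0.0171) and Col5a1, a chain of collagen V, at 0.46 (adjusted p = 0.0377). These p-values are from limma.

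Adamts1, Adamts4, Adamts5, Adamts8, Adamts9 and Adamts15 belong to the branch of the family that cuts versican, aggrecan and related proteoglycans. Adamts1 was the most abundant of these 6. Its FPKM ran from 9.08 to 23.0 (median 14.1) in control samples and from 15.6 to 32.1 (median 18.8) in ANG II samples. All 12 ANG II samples lay above the control median, but only 1, ANG II sample 12, lay above the highest control sample. The means were 19.7 ± 4.33 and 15.0 ± 4.09 (SD, n = 12), with a log2 fold change of 0.39 ± 0.12 (standard error, limma, adjusted p = 0.0184). The log2 fold change was 0.44 without samples 4 to 6 (limma, adjusted p = 0.0166), 0.35 without samples 7 to 9 (limma, adjusted p = 0.0862) and 0.27 without samples 10 to 12 (limma, adjusted p = 0.147). The differences before the adjustment were 0.627, 1.16, 5.97 and 11.2 FPKM in the 4 sets in order, and the groups did not overlap in the last 2. The exact test within the sets gave an adjusted p of 0.035 on the log2 scale and of 0.0669 on FPKM before the adjustment. Adamts1 thus differed most in samples 7 to 12, although the interaction test was not past the threshold (limma, adjusted p = 0.497).

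Adamts4, a major aggrecanase (chr1:171250421-171260637, plus strand), was the lowest of the 10 genes in the control group. Control FPKM ran from 0.488 to 2.20 with a median of 0.893, and ANG II FPKM from 1.24 to 3.56 with a median of 1.85. Every ANG II sample lay above the control median and 5 lay above the highest control sample. The means were 2.05 ± 0.806 and 0.988 ± 0.512 (SD, n = 12). The log2 fold change was 0.61 ± 0.14 (standard error, limma, adjusted p = 0.00162) and 0.72 without samples 4 to 6 (limma, adjusted p = 0.00274). The differences before the adjustment, 0.127, 0.393, 1.66 and 1.72 FPKM in the 4 sets, were again the larger in samples 7 to 12, where the groups did not overlap. In samples 10 to 12, for example, the deposited values were 1.27, 2.69 and 3.28 FPKM with ANG II and 0.915, 0.488 and 0.555 FPKM in the controls.

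Adamts15, a further protease that cuts aggrecan and versican, had the smallest adjusted p of the 10 genes in the limma fit to all samples, while Adamtsl2 and Adamts2 had smaller ones in the exact tests. Control FPKM ran from 1.43 to 4.85 (median 2.99) and ANG II FPKM from 3.16 to 7.85 (median 4.88). All 12 ANG II samples lay above the control median and 6 above the highest control sample, which was control sample 2. The means were 4.99 ± 1.24 and 3.07 ± 0.850 (SD, n = 12), with a log2 fold change of 0.56 ± 0.12 (standard error, limma, adjusted p = 8.9e-04). It was 0.45 without samples 4 to 6 (limma, adjusted p = 0.00831), and the exact test within the sets on FPKM before the adjustment gave an adjusted p of 0.00746. Before the adjustment the groups did not overlap in 3 of the 4 sets, with differences of 3.78, 2.21 and 1.69 FPKM in samples 4 to 6, 7 to 9 and 10 to 12, against 0.167 FPKM in samples 1 to 3. As deposited, ANG II sample 10 (3.16 FPKM) lay below control samples 10 and 11 (3.40 and 3.22 FPKM). The interaction test of Adamts15 was not past the threshold (limma, adjusted p = 0.321).

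Adamts8, the neighbour of Adamts15, had an adjusted p near the threshold. Its control FPKM ran from -1.43 to 5.57 (median 1.70) with 3 negative values, all of samples 4 to 6, and its ANG II FPKM ran from 0.916 to 7.83 (median 2.34). The highest control sample, control sample 2, was exceeded by 2 ANG II samples. The means were 3.11 ± 2.17 and 1.10 ± 1.87 (SD, n = 12), and the log2 fold change was 0.90 ± 0.31 (standard error, limma, adjusted p = 0.0282). It was 0.33 without samples 4 to 6 (limma, adjusted p = 0.466), and it lost its call in 7 of 24 fits that left out 1 sample, with adjusted p from limma up to 0.0518, while the log2 fold change stayed between 0.78 and 1.06 over the 24 fits. The samples of those 7 fits were ANG II samples 1, 4 and 6 and control samples 3 to 6. Before the adjustment the differences were -0.117, 7.38, 1.25 and 0.937 FPKM in the 4 sets, and in all but the first the groups did not overlap. In samples 1 to 3, ANG II sample 1 (6.00 FPKM) and control sample 2 (5.57 FPKM) lay far above the other 4 samples of that set, which were all under 1 FPKM.

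Adamts5, the other major aggrecanase and the neighbour of Adamts1, rose by a smaller amount. Control FPKM ran from 1.89 to 4.35 (median 2.89) and ANG II FPKM from 2.46 to 5.20 (median 3.68). The ranges overlapped widely, with 4 ANG II samples above the highest control sample. The means were 3.80 ± 0.903 and 2.90 ± 0.778 (SD, n = 12), with a log2 fold change of 0.30 ± 0.11 (standard error, limma, adjusted p = 0.0351). It was 0.17 without samples 4 to 6 (limma, adjusted p = 0.364), and the call was lost in 9 of 24 fits that left out 1 sample, with adjusted p from limma up to 0.0665 and log2 fold changes between 0.27 and 0.35 over the 24 fits. These were the fits without ANG II sample 1, 4, 6, 8 or 12 or control sample 3, 5, 6 or 8. After quantile normalization the adjusted p was 0.0741 (limma). In samples 4 to 6 the groups did not overlap before the adjustment and differed by 1.98 FPKM, and they overlapped in the other sets, where they differed by -0.383, 0.757 and 0.797 FPKM.

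Adamts9, a versican-cutting protease with the longest coding sequence of the 10 genes (5793 bases in 40 exons, chr6:92772699-92943492, minus strand), was not past the threshold. Its FPKM ran from 4.80 to 8.44 (median 5.64) in control samples and from 4.67 to 10.2 (median 6.50) in ANG II samples. The means were 7.03 ± 1.55 and 6.01 ± 1.25 (SD, n = 12), with a log2 fold change of 0.19 ± 0.10 (standard error, limma, adjusted p = 0.147). Samples 4 to 6 went the other way, by -2.22 FPKM before the adjustment, against 2.00, 1.12 and 2.35 FPKM in samples 1 to 3, 7 to 9 and 10 to 12. Leaving samples 4 to 6 out gave a log2 fold change of 0.33, which was past the threshold (limma, adjusted p = 0.0265).

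Of 7 tested genes of the proteoglycans that these proteases cut and of related matrix and link proteins, 3 were higher and 0 were lower. The shares over all genes were 20.9% and 12.6%. The median log2 fold change of the list was 0.42. Bgn, the small proteoglycan biglycan, had 2.01 ± 0.67 (adjusted p = 0.0231, 1 negative value), Vcan, which encodes versican, 0.42 ± 0.14 (adjusted p = 0.0207), and Acan, which encodes aggrecan and had 3 negative values, 0.36 ± 0.08 (adjusted p = 0.00117). Aggrecan was near the lower limit of the table, at 0.50 ± 0.261 FPKM with ANG II and 0.110 ± 0.175 FPKM in the controls (SD, n = 12), whereas versican was at 8.23 ± 2.79 and 5.84 ± 1.47 FPKM. The median of the list was 0.01 without samples 4 to 6, and the log2 fold changes were 0.79 for Bgn (adjusted p = 0.00398), 0.16 for Vcan (adjusted p = 0.242) and 0.19 for Acan (adjusted p = 0.0465). All of these p-values are from limma.

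Adamts10, Adamtsl2 and Adamtsl4 encode proteins that bind fibrillin microfibrils, and Adamts10 and Adamtsl2 are known from inherited short-stature syndromes in which skin and heart valves can be affected. Adamtsl2 (chr2:27079379-27108981, plus strand) had the most separate groups of the 3. Its control FPKM ran from -1.0 to 13.9 (median 10.2) with 1 negative value, and its ANG II FPKM from 11.5 to 29.5 (median 17.3). All 12 ANG II samples lay above the control median and 10 above the highest control sample. The means were 19.9 ± 6.49 and 8.71 ± 4.65 (SD, n = 12), with a log2 fold change of 1.33 ± 0.34 (standard error, limma, adjusted p = 0.00471). Without samples 4 to 6 it was 0.56 (limma, adjusted p = 0.00354), and the exact test within the sets gave an adjusted p of 0.00212 on FPKM before the adjustment. In samples 4 to 6 the deposited FPKM were 29.4, 29.5 and 26.0 with ANG II and -1.0, 1.43 and 4.43 in the controls. Before the adjustment the differences were 4.14, 30.7, 6.97 and 8.72 FPKM in the 4 sets, and they varied between the sets on the log2 scale (limma, interaction, adjusted p = 0.00131).

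Adamts10 (chr17:33524204-33553782, plus strand) rose mainly in 1 set. Control FPKM ran from 5.12 to 15.8 (median 11.7) and ANG II FPKM from 11.2 to 23.0 (median 14.4), with 5 ANG II samples above the highest control sample. The means were 15.7 ± 4.30 and 10.8 ± 3.52 (SD, n = 12), and the log2 fold change was 0.53 ± 0.17 (standard error, limma, adjusted p = 0.0182). It was 0.10 without samples 4 to 6 (limma, adjusted p = 0.478). In samples 4 to 6 the deposited FPKM were 21.0, 21.1 and 23.0 with ANG II and 5.82, 5.12 and 5.38 in the controls, and before the adjustment the groups differed by 19.6 FPKM. In the other sets they differed by -1.40, 2.92 and 2.32 FPKM, and the interaction had an adjusted p of 7.77e-05 (limma). The exact test within the sets was not past the threshold, with adjusted p of 0.0605 on the log2 scale and 0.0529 on FPKM before the adjustment.

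Adamtsl4, which in the eye is needed to hold the lens (chr3:95676201-95687917, minus strand), was the most abundant of the 10 genes and did not pass the test. Its FPKM ran from 17.1 to 30.0 (median 25.6) in control samples and from 19.6 to 33.5 (median 25.6) in ANG II samples. The means were 25.9 ± 4.29 and 24.2 ± 4.07 (SD, n = 12), with a log2 fold change of 0.10 ± 0.09 (standard error, limma, adjusted p = 0.439). When samples 4 to 6 were left out, the value turned to -0.01 (limma, adjusted p = 0.959). The differences before the adjustment were 4.08, 8.15, -4.05 and 0.523 FPKM, and the groups overlapped or lay in the opposite order in each set.

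**Figure D3:**
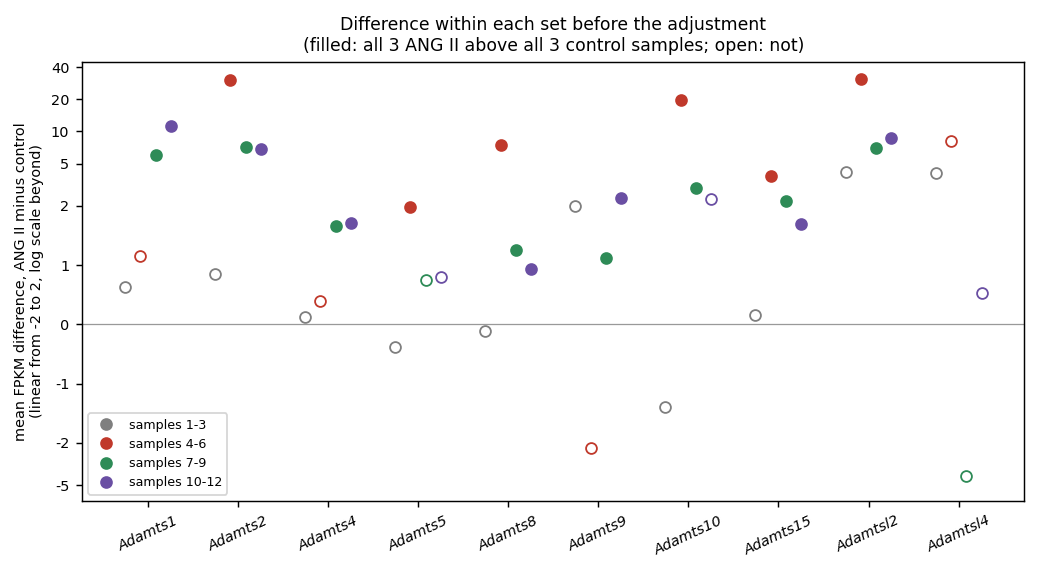
Mean FPKM difference before the adjustment, ANG II minus control (y axis, linear from -2 to 2 and logarithmic beyond), for each gene (x axis) in each of the 4 sets (colours). Filled points mark sets in which the 3 ANG II samples all lay above the 3 control samples, which held for 0, 6, 8 and 7 of the 10 genes in samples 1 to 3, 4 to 6, 7 to 9 and 10 to 12.

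Set by set, the 10 genes stood against a background that also moved. Non-overlapping higher values before the adjustment were seen for 0, 6, 8 and 7 of the 10 genes in the 4 sets in order, where 4.52%, 40.9%, 18.9% and 12.8% of all genes did the same. Of these, Adamts2, Adamts9 and Adamts10 in samples 7 to 9 and Adamts8 and Adamts15 in samples 10 to 12 overlapped as deposited. A higher mean with ANG II before the adjustment was seen for 7, 9, 9 and 10 of the 10 genes, and for 41.6%, 74.7%, 53.4% and 59.3% of all genes. Fitted alone with limma, the sets called 0, 6, 1 and 0 of the 10 genes as higher, against 0.0%, 22.1%, 2.49% and 0.136% of all genes. The 1 gene called in samples 7 to 9 was Adamts15, with a log2 fold change of 0.78 (limma, adjusted p = 0.013). In samples 1 to 3, the median log2 fold change of the 10 genes was 0.20, and it was 0.80, 0.28 and 0.47 in the sets that followed. Without samples 4 to 6 no interaction was past the threshold for any of the 10 genes, and 3 genes passed in all.

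Of 15 genes of the microfibril and of TGF-β storage, 11 were higher and 0 were lower, where 20.9% and 12.6% of all genes were, with a median log2 fold change of 0.95. Mfap4, a microfibril-associated protein, had 2.61 ± 0.66 (adjusted p = 0.00388), Fn1, which encodes fibronectin, 2.08 ± 0.69 (adjusted p = 0.0233), and Lox, the collagen and elastin cross-linking enzyme, 1.77 ± 0.31 (adjusted p = 1.52e-04). Mfap4 and Fn1 each had 3 negative values. Fbn1, which encodes fibrillin-1, rose by 1.04 ± 0.28 (adjusted p = 0.00639), and Tgfb1, Tgfb2 and Tgfb3 by 0.44, 0.66 and 0.95 (adjusted p = 0.00213, 3.3e-04 and 0.00129). Ltbp1 and Ltbp4, which bind latent TGF-β, were not past the threshold, at -0.06 (adjusted p = 0.434) and 0.08 (adjusted p = 0.607). The median of the 15 genes was 0.37 without samples 4 to 6, and 5 were called higher, Mfap4 at 1.11, Lox at 1.45, Mfap5 at 0.87, Tgfb2 at 0.50 and Tgfb3 at 0.51 (adjusted p = 0.00173, 0.00823, 7.61e-04, 0.016 and 0.0274). Fn1 at 0.46, Fbn1 at 0.37 and Tgfb1 at 0.30 were then not past the threshold (adjusted p = 0.0887, 0.0504 and 0.0659). These p-values are from limma.

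Of 6 inhibitors and clearance receptors that act on ADAMTS proteins, 2 were higher and 1 was lower, beside 20.9% and 12.6% of all genes, so that these counts are no result about the list. Timp1, an inhibitor of metalloproteases, had a log2 fold change of 3.09 ± 0.59 (limma, adjusted p = 3.48e-04), with 4 negative control values, and 2.54 without samples 4 to 6 (limma, adjusted p = 0.013). Timp3, the member of that family that inhibits the aggrecanases ADAMTS4 and ADAMTS5, had 0.48 ± 0.17 (limma, adjusted p = 0.031) and 0.35 without samples 4 to 6 (limma, adjusted p = 0.198). Pzp, a protease-trapping protein of very low level, fell by 0.15 on the log2 scale (limma, adjusted p = 0.0276). Lrp1, the receptor that takes up several of these proteases, had 0.34 ± 0.15 (limma, adjusted p = 0.0746).

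Of 8 genes of propeptide removal and of glycosylation of the thrombospondin repeats, 2 were higher and 1 was lower, which are also near the shares over all genes. Furin, which removes the propeptide of many ADAMTS proteases, rose by 0.23 ± 0.06 (limma, adjusted p = 0.00429), from 48.3 ± 4.68 to 56.7 ± 6.02 FPKM (SD, n = 12), and it kept 0.25 without samples 4 to 6 (limma, adjusted p = 0.0118). Dpy19l1, of a family of enzymes that mannosylate such repeats, rose by 0.27 ± 0.09 (limma, adjusted p = 0.0201) and had 0.11 without samples 4 to 6 (limma, adjusted p = 0.342). Pcsk6, a convertase related to Furin, fell by 0.24 on the log2 scale (limma, adjusted p = 0.0111). Pofut2 and B3glct, which add the fucose and glucose that thrombospondin repeats need for secretion, were at 0.09 (limma, adjusted p = 0.403) and 0.12 (limma, adjusted p = 0.195).

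**Figure D4:**
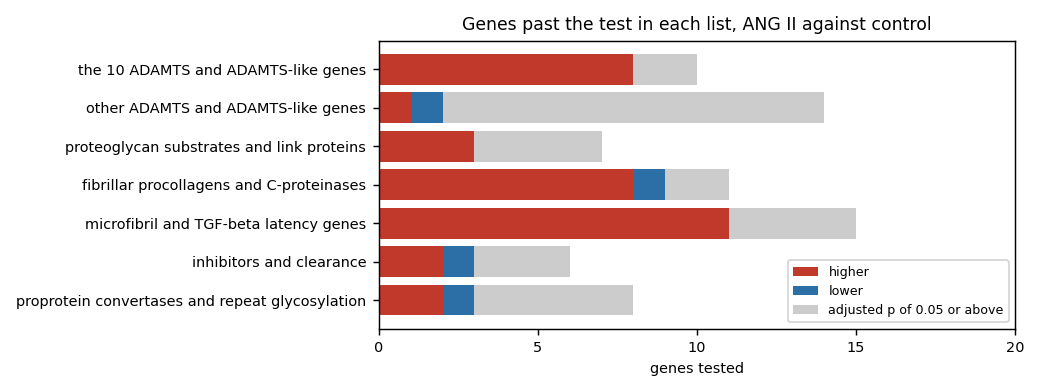
Number of genes tested in each list (x axis), divided into genes higher with ANG II (red), genes lower (blue) and genes with an adjusted p of 0.05 or above (grey, limma). The 10 genes had 8 higher and 0 lower, the other ADAMTS and ADAMTS-like genes 1 and 1, and the microfibril and TGF-β list 11 and 0. Over all genes tested, 20.9% were higher and 12.6% were lower.

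Of 16 other ADAMTS and ADAMTS-like genes, 14 were tested, 1 was higher and 1 was lower, with a median log2 fold change of 0.07. Over all genes, 20.9% were higher and 12.6% were lower, so that these counts are no result about the rest of the family. Adamts18 was not in the table as read here, and Adamts16 was under the limit for testing. Adamtsl5, the most abundant of the others, rose from 53.5 ± 4.20 to 65.3 ± 7.08 FPKM (SD, n = 12), with a log2 fold change of 0.28 ± 0.05 (limma, adjusted p = 4.37e-04) and 0.27 without samples 4 to 6 (limma, adjusted p = 0.00569). Adamts7, a protease known for cutting cartilage oligomeric matrix protein, went from 7.79 ± 1.17 to 5.00 ± 1.27 FPKM (SD, n = 12). It fell by 0.57 on the log2 scale (limma, adjusted p = 3.11e-04) and by 0.72 without samples 4 to 6 (limma, adjusted p = 2.74e-04). It was the only one of the 24 tested family members called lower in the fit to all samples.

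Markers of cell types were read beside these genes, and in bulk tissue fewer cells of a type and less RNA per cell cannot be told apart. Over all genes, 20.9% were higher and 12.6% were lower (limma). The counts below for general fibroblasts, smooth muscle, pericytes and endothelial cells are not far from these shares and are no result about those lists. Without samples 4 to 6, 1177 genes were called higher. Of 6 markers of activated fibroblasts, 5 were higher (2 without samples 4 to 6), and their summed FPKM ran from 128 to 428 in ANG II samples and from 59.7 to 177 in control samples. By set, this sum had means of 202, 304, 232 and 208 with ANG II and of 159, 69.5, 138 and 162 in the controls, so that it was most unequal in samples 4 to 6, as were Adamts2, Adamts10 and Adamtsl2. Macrophage and smooth muscle sums were also most unequal there (means of 398 against 142 and of 290 against 177). The red blood cell sum was most unequal in samples 10 to 12 (3310 against 459). Of 6 general fibroblast markers, Lum was higher and Gsn was lower (757 to 1590 against 662 to 1150 in summed FPKM, with medians of 850 and 1060). By set, the mean of this sum was 868, 1180, 820 and 850 with ANG II and 1030, 796, 1100 and 1070 in the controls, so that it was higher with ANG II only in samples 4 to 6. All 7 macrophage markers were higher (186 to 537 against 131 to 283), as were 2 of 6 smooth muscle markers, Tagln and Cnn1 (147 to 333 against 132 to 268). Without samples 4 to 6, 0 macrophage and 0 smooth muscle markers were called higher. Pericytes had 1 marker of 6 higher and 2 lower (221 to 298 against 217 to 299), and endothelial cells had 1 higher and 1 lower of 6 (293 to 471 against 311 to 404). Of 7 markers of ventricular cardiomyocytes, 0 were higher and 4 were lower (30800 to 44000 against 40700 to 50700).

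All 5 red blood cell markers were higher (779 to 6440 against 56.2 to 2950 in summed FPKM), where 20.9% of all genes were higher and 12.6% were lower. Of 4 atrial markers 1, Nppa, was higher, and each of the 4 had 7 negative values (170 to 6300 against -443 to 8110). None of 5 mesothelial and 3 adipocyte markers passed the test (2.68 to 27.3 against 5.57 to 56.2, and 0.181 to 14.3 against -1.79 to 16.7). The 3 skeletal muscle markers in the table, of which 1 was higher and 1 lower, summed to 1.60 to 11.8 against 1.15 to 3.40, and 3 further ones were not in the table. No marker list other than those of the atrium and adipocytes had a sum at or under 0 in any sample. The part of these markers in the differences of the 10 genes was not tested.

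FPKM is per length, but these values were adjusted gene by gene, so levels can be compared between the genes only roughly. In the control group the order by mean was Adamtsl4 (24.2 FPKM), Adamts1 (15.0), Adamts10 (10.8), Adamts2 (9.71), Adamtsl2 (8.71), Adamts9 (6.01), Adamts15 (3.07), Adamts5 (2.90), Adamts8 (1.10) and Adamts4 (0.988). By the control median, Adamts2 (12.7 FPKM) was above Adamts10 (11.7 FPKM), the reverse of their order by mean. Adamtsl4 was above Adamts1 in 11 of 12 control samples, and Adamts9 was above Adamts15 in all 12. Adamts9 and Adamts15 were the only neighbours in this order that kept it in every control sample. Order changed most often between Adamts10 and Adamts2 (Adamts10 higher in 5 of 12 control samples), Adamts15 and Adamts5 (Adamts15 higher in 7) and Adamts8 and Adamts4 (Adamts8 higher in 7). Adamtsl2 was above Adamts9 in 9, Adamts1 above Adamts10 in 10, and Adamts2 above Adamtsl2 and Adamts5 above Adamts8 in 11. In the hypertensive-LVH group, Adamts2 was above Adamts10 in all 12 samples, and Adamts15 was above Adamts5 in 11 of 12, and Adamts2 was above Adamtsl2 in 6 of 12. Because the adjustment moved each gene in each set, orders within a sample rest on the deposited values alone.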

How the data were processed

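RNA-seq of 24 left ventricle samples was used. The authors deposited 1 table of FPKM values by gene symbol, recorded here as a score because 2741 of its values were negative, which shows that FPKM were adjusted before they were deposited. The submitters' processing notes name HISAT, Bowtie2 and RSEM without versions, and the genome build is not given in the sources used here. Samples were grouped by their labels, and sets by ties (at least 100 tied genes; 215 to 541 within a set, 0 between sets). Differences before the adjustment were recovered where the values of a gene fitted steps of 0.01 FPKM in 1 way (13835 genes). That step and the limma step were tested on simulated data.

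Negative values were set to 0, 14026 genes whose mean FPKM reached 0.1 were kept, and the authors' FPKM were turned into log2(FPKM + 1). The groups were compared with limma 3.58.1 with an intensity trend in R 4.3.3, with Benjamini-Hochberg adjustment over all genes tested, and the group by set interaction was tested in the same way. The exact permutation test within sets was two-sided. Printed means and SD keep negative values. Python 3.11.15, numpy 2.4.6, pandas 2.3.3 and scipy 1.17.1 were used for the rest.

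The 10 genes, the gene lists and the sets were chosen with earlier results of these data known. Besides the 10 genes, the text names up to 3 genes of each list with the largest absolute log2 fold change past the threshold, genes past it against their list, and the 3 genes most like each of the 10 in the correlation of residuals. Others in the text (Adamts3, Adamts14, Bmp1, Col5a1, Fbn1, Tgfb1, Tgfb2, Tgfb3, Ltbp1, Ltbp4, Lrp1, Pofut2, B3glct and the markers) were named for their role after their values were seen. Alternatives were quantile normalization, median-ratio scaling, no filter or a minimum mean FPKM of 1, a pseudocount of 0.1, FPKM without logarithm, a Wilcoxon rank-sum test, limma without the trend, a term for the set, the replicate number as a block, and leaving out each sample or set. Each set fitted alone was added after the data were seen. The labels do not say whether replicate numbers pair the samples.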

Additional observations from a re-analysis of the deposited data

Results flagged for a closer look

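For 3 of the 10 genes the ANG II difference was not the same in the 4 sets of samples, by a limma test of the group by set interaction with Benjamini-Hochberg adjustment over all 14026 genes. The adjusted p was 5e-06 for Adamts2, 7.77e-05 for Adamts10 and 0.00131 for Adamtsl2. Log2 fold changes in samples 1 to 3, 4 to 6, 7 to 9 and 10 to 12 were 0.34, 4.43, 0.32 and 0.48 for Adamts2, 0.04, 1.82, 0.09 and 0.17 for Adamts10, and 0.56, 3.63, 0.39 and 0.74 for Adamtsl2. The difference was thus largest in samples 4 to 6 for each of the 3, and without that set no interaction passed for any of the 10 genes. The test uses the deposited values, in which negative values were set to 0. Before the adjustment, the lowest level that the ANG II mean of samples 4 to 6 can have had was 31.6 FPKM for Adamts2, 20.1 FPKM for Adamts10 and 34.1 FPKM for Adamtsl2, because no sample of the set can have been under 0. The cause of the difference between the sets was not tested.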

How the results depend on the processing

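Higher calls over all genes, 2928 with all samples, were 1922 after quantile normalization, 1586 with the replicate number as a block and 1177 without samples 4 to 6, and lower calls, 1769, were 2930 after quantile normalization. Genes meeting the DEG criteria, 634 higher and 197 lower, were 1148 and 341 with a pseudocount of 0.1, and 323 were higher without samples 4 to 6. Of the 10 genes, 8 were called, against 3 with the replicate block and 0, 1 and 0 in samples 1 to 3, 7 to 9 and 10 to 12 fitted alone. DEGs among them, 6, were 3 after quantile normalization, 3 with the replicate block, 2 without samples 4 to 6, and 0, 1 and 0 in those 3 sets alone. Without samples 4 to 6, 3 genes and 0 of the 10 passed the interaction test, and Adamtsl4 turned to -0.01.

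Leaving out 1 sample at a time gave 2376 to 3336 genes higher and 1597 to 1824 lower, 540 to 738 DEGs higher and 175 to 241 lower, 6 to 8 of the 10 genes called and 3 to 6 of them DEGs, the 3 without control sample 6. Adamts4, Adamts15 and Adamtsl2 kept their calls under 38 alternatives fitted to more than 1 set, but of the sets fitted alone Adamts4 was called in 0, Adamtsl2 in samples 4 to 6 and Adamts15 in samples 4 to 6 and 7 to 9. Adamts1 lost its call under 3, Adamts2 under 1, Adamts10 under 3, Adamts5 under 15 and Adamts8 under 10, and Adamts9 gained one under 1, without samples 4 to 6. Same-numbered samples deviated apart (12 pairs, r from -0.557 to -0.001), and 0 of 24 samples was most like its own number. This cannot show whether the numbers pair samples, because set means were kept and the groups of a set tended to deviate oppositely. The summed FPKM of the 10 genes, for example, had means of 151 (ANG II) and 58.1 (control) in samples 4 to 6. In samples 1 to 3 these means were 111 and 93.3. The block rests on numbers alone. Sequencing depth is unknown, so no counting error can be given. The causes were not tested.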

Other observations

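The samples also varied around the mean of their group in their set, and these residuals on the log2(FPKM + 1) scale were compared between genes over the 24 samples as a description. The points share libraries and the adjustment within the sets. Among the 45 pairs of the 10 genes, Pearson's r had a median of 0.25 and ran from -0.31 (Adamts15 and Adamtsl2) to 0.64 (Adamts8 and Adamts10). Adamts1 had 0.63 with Adamts9 and 0.51 with Adamts4. The chromosomal neighbours had 0.13 (Adamts1 and Adamts5) and 0.32 (Adamts8 and Adamts15). Adamts2 and Adamtsl2, both highest over their controls in samples 4 to 6, had 0.25.

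The genes most like Adamts1 in this way were Mafk (r = 0.88), Btg2 (0.867) and Fosl2 (0.847), and those most like Adamts4 were Junb (0.87), Inhbb (0.836) and Scarb1 (0.821). Btg2 and Junb are known as immediate early genes, and neither was past the threshold between the groups (limma, adjusted p = 0.401 and 0.596). Adamts2 was most like Tagln (r = 0.95), Mgp (0.915) and Csrp2 (0.901), of which Tagln and Csrp2 are known from smooth muscle. Tagln rose by 1.32 (limma, adjusted p = 0.0459) and by 0.29 without samples 4 to 6 (limma, adjusted p = 0.537). Adamtsl2 was most like C1qtnf6 (r = 0.895), Crmp1 (0.883) and Col15a1 (0.876), and all 3 were higher with ANG II (limma, adjusted p = 4.46e-04, 0.0411 and 0.0117). Spearman's rank correlation of the same residuals was 0.668, 0.807 and 0.915 for these 3, so their order depends on the measure. In these residuals 1 negative control value of Adamtsl2 entered as 0. The nearest genes to the others were Usp45, Srek1 and Thoc2 for Adamts5 (r from 0.94 to 0.947), Creb3l2, Cgnl1 and Car3 for Adamts8 (0.901 to 0.911), Tinagl1, Fgfr3 and Pelp1 for Adamts9 (0.754 to 0.763), Pld2, Ctdspl and Smo for Adamts10 (0.89 to 0.911), Tnfrsf1a, Zfp703 and Rnd3 for Adamts15 (0.807 to 0.847), and Rhobtb1, Epb41 and Tbx5 for Adamtsl4 (0.859 to 0.876).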
